A study of Mus musculus with 24 samples.

Results

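The 10 genes described here belong to the cellular response to low oxygen and to glycolysis: Hif1a, Egln3, Slc2a1, Hk2, Pfkfb3, Pgk1, Ldha, Vegfa, Adm and Bnip3. They were found by their gene names among the probes of a whole-genome mouse expression array, and each was read at its brightest probe, which gave 10 of the 23503 genes measured. Aortas were collected from 8 groups of mice on normal chow, with 3 biological replicates and 1 array per replicate. All mice carried the C57BL/6 strain label and were either IL-17 knockout (KO) or wild type (WT). Within each genotype, 1 group drank 1% NaCl and received a 3-day infusion of angiotensin II with β-aminopropionitrile, an inhibitor of the collagen and elastin cross-linking enzyme lysyl oxidase. A further group received that infusion with plain water, another drank salt water and received vehicle, and the control group had plain water and vehicle. The labels name only the β-aminopropionitrile of the infused mixture, so neither agent was given without the other in the groups compared here. The labels give no ages, and they do not give the construct behind the knockout.

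When oxygen is plentiful, prolyl hydroxylases mark the alpha subunits of hypoxia-inducible factor for destruction by the von Hippel-Lindau complex. When oxygen is short the subunits persist, pair with Arnt, bind the short DNA core ACGTG near their targets and raise the transcription of genes for glucose uptake, glycolysis, vessel growth and mitochondrial turnover. The factor is controlled mainly through the stability of its protein, which an RNA array does not measure, and glycolytic genes are also raised in dividing and in activated immune cells.

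The promoters are shown first because the core can be read in them directly. RefSeq (GRCm38.p6) lists 13 promoters for the 10 members, each covering 250 bases before to 50 bases after a transcription start. The core was searched on both strands, as ACGTG or as CACGT, and the palindrome CACGTG holds both. It was found in 10 of the 13 promoters and in at least 1 promoter of 9 of the 10 members. Among all 32851 RefSeq mouse promoters of that length, 19.6% held it, a share per promoter that stands beside the 10 of 13. The members were chosen by name as genes of the low-oxygen response and of glycolysis. A higher share among them is therefore read as no result. In the members every match lay before the start. The sequences below run 5′ to 3′ on the strand of the gene, with the core and its overlapping copies in capitals, and come from members whose RNA is described in detail below.
Ldha, chr7:46845641-46845682, plus strand: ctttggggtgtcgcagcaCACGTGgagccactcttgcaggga
Ldha, chr7:46845738-46845792, plus strand: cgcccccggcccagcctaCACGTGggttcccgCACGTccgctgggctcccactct
Pgk1, chrX:106186932-106186991, plus strand: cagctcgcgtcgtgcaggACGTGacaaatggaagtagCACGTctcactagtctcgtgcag
Hif1a, chr12:73907714-73907755, plus strand: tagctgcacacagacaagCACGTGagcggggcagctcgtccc
Slc2a1, chr4:119108691-119108731, plus strand: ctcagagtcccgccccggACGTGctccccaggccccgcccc
Bnip3, chr7:138909591-138909632, minus strand: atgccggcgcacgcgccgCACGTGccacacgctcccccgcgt
Egln3, chr12:54204081-54204121, minus strand: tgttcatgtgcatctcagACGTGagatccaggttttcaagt
The promoters with the core include those of genes whose RNA was higher in infused aortas (Ldha, Pgk1) and of a gene whose RNA was lower (Bnip3). The Adm promoter held no match in this window. A match is a description of the letters and was not tested as a binding site.

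**Figure D1:**
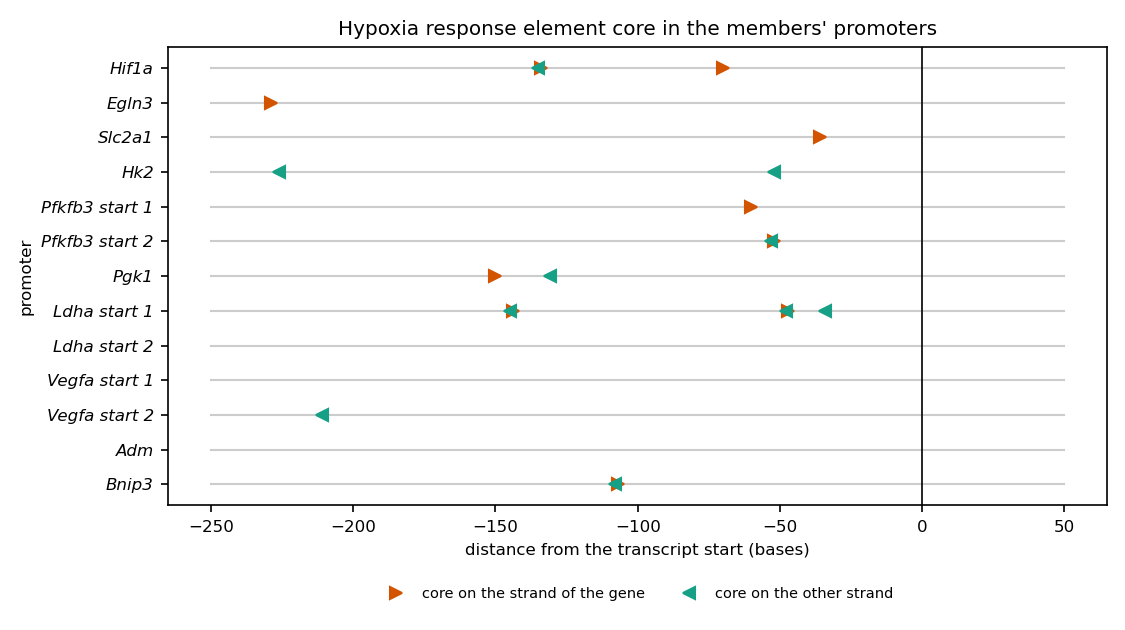
Position of the core ACGTG (either strand) in the 13 RefSeq promoters of the 10 members, with distance from the transcription start in bases on the horizontal axis and 1 row per promoter. The marks lie before the start in 10 of the 13 promoters, and the row for Adm has none.

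A level below is the relative signal, that is, the background-corrected probe intensity divided by the 75th percentile of its own array. Each probe has its own brightness, so levels are compared between aortas and never between genes. The brightest probe of each of the 10 members was well above background on all 24 arrays. In a bulk aorta sample, fewer cells of a type and less RNA per cell cannot be told apart. The 75th percentile ranged over the arrays between 269.6 and 772 intensity units, and 51.1% to 60.8% of spots were well above background. All 8 smooth muscle markers listed for the labelled tissue were measured, and so were 7 of 8 fat cell markers and 6 of 8 striated muscle markers, each well above background on at least 22 arrays. The arrays lay on 4 slides and no slide held both genotypes, so genotype and slide cannot be told apart. Array 3 of the infused plain-water group of each genotype correlated least with its own group, at a mean r of 0.973 in KO and 0.972 in WT.

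The first question was what the infusion did to these genes in the aorta, with salt water and with plain water, in each genotype. Ldha and Pgk1, which encode enzymes of glycolysis, rose in all 4 infusion comparisons, and Bnip3, which encodes a mitochondrial protein that marks mitochondria for removal, fell in all 4. Adm, the gene of the vasodilator peptide adrenomedullin, fell in 3 of the 4. Hif1a rose in 1 and Egln3 fell in 1. Slc2a1, Hk2, Pfkfb3 and Vegfa did not pass the test in any of the 4. In WT under plain water, where infused and control aortas lay on different slides, no member was called once slide was a block, and with only the compared groups fitted the calls of Ldha, Pgk1 and Bnip3 were lost (limma adjusted p = 0.0694, 0.115 and 0.0619).

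Ldha encodes the lactate dehydrogenase subunit that turns pyruvate into lactate, and its probe lies at 54110937 to 54110996 of chromosome 7, plus strand, in the mm9 coordinates of the files. In KO aortas its relative signal was 187, 179 and 195 with salt and infusion, against 102, 98.2 and 100.1 with salt. It was 216, 184 and 164 in KO aortas with infusion on plain water, against 105, 97.6 and 107.3 in KO controls. Every infused KO array stood above every KO array without infusion.
The differences were a log2 fold change of 0.90 ± 0.20 (SE) under salt (1.87-fold, adjusted p = 0.00398 by limma over all genes) and of 0.86 under plain water (1.81-fold, adjusted p = 0.00426 by limma).
In WT aortas Ldha read 192, 145 and 219.8 with salt and infusion, against 83.4, 81.7 and 82.6 with salt. The infused plain-water WT aortas read 214.5, 196 and 100.1, against 70.5, 76.7 and 73.9 in WT controls. The third of these infused arrays was far below the other two, yet above all WT controls, so the groups did not overlap.
Ldha rose 2.21-fold under salt (log2 1.15, limma adjusted p = 0.000591) and 2.19-fold under plain water in WT (log2 1.13, limma adjusted p = 0.000878).
Ldha has 3 probes on the array, and the other two also rose in all 4 infusion comparisons.
From high to low, its group means ran in the order KO infusion, KO salt with infusion, WT salt with infusion, WT infusion, KO control, KO salt, WT salt and WT control. Neighbours among the 4 infused groups did not differ beyond their spread. The gap from WT infusion down to KO control exceeded the spread, at 0.65 log2 units.

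Pgk1 encodes phosphoglycerate kinase, which makes ATP in the lower part of glycolysis. With salt and infusion the KO aortas read 48.5, 40.1 and 53.3, against 20.8, 20.8 and 20.6 with salt. With infusion on plain water they read 62.4, 49.99 and 36.9, against 19.2, 20.5 and 21.0 in KO controls. The KO groups did not overlap, and the infused arrays were more widely spread than the others.
Pgk1 rose 2.26-fold in KO under salt (log2 1.18 ± 0.27 SE, limma adjusted p = 0.00439) and 2.40-fold under plain water (log2 1.27, limma adjusted p = 0.0021).
The WT aortas with salt and infusion read 39.1, 31.3 and 53.9, against 15.5, 16.9 and 14.0 with salt. Those with infusion on plain water read 49.0, 39.0 and 18.3, against 15.4, 17.8 and 14.3 in WT controls. The third infused plain-water array stood only just above the highest WT control, while the groups under salt were well apart.
Pgk1 rose 2.62-fold in WT under salt (log2 1.39, limma adjusted p = 0.00114) and 2.08-fold under plain water (log2 1.05, limma adjusted p = 0.00846). Without the first or the second infused array the WT plain-water difference was no longer called, at 0.76 (limma adjusted p = 0.0565) and 0.93 (limma adjusted p = 0.055). The files place the single Pgk1 probe on chromosome 3 (mm9, 57906830 to 57906894), whereas RefSeq has the gene on the X chromosome, so signal shared with a near-identical copy could not be separated and the Pgk1 values are uncertain.

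Bnip3 had relative signals of 10.9, 11.3 and 8.92 in KO aortas with salt and infusion, against 17.6, 14.7 and 16.7 with salt. It read 9.63, 11.9 and 9.49 in KO aortas with infusion on plain water, against 18.4, 16.9 and 16.2 in KO controls. All infused KO arrays lay below all others of that genotype.
In WT aortas it read 8.43, 9.84 and 8.33 with salt and infusion, against 16.4, 17.7 and 15.7 with salt. It read 9.94, 6.90 and 8.58 with infusion on plain water, against 15.8, 15.3 and 12.5 in WT controls. The WT groups did not overlap either, and here the third infused array of the plain-water group was not apart from the other two.
Bnip3 fell by 0.66 log2 units in KO under salt (1.58-fold lower, SE 0.14, limma adjusted p = 0.00312) and by 0.74 under plain water (1.67-fold, limma adjusted p = 0.00114). In WT it fell by 0.91 under salt (1.88-fold, limma adjusted p = 0.00026) and by 0.79 under plain water (1.72-fold, limma adjusted p = 0.000976). With slide as a fixed block the calls under plain water in WT (limma adjusted p = 0.22) and under salt in KO (limma adjusted p = 0.147) were lost. Of its other two probes, both fell in every infusion comparison except that the dimmest gave -0.56 (limma adjusted p = 0.052) in KO under salt.

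Adm was the member with the widest spread among those that fell. KO aortas read 1.26, 2.01 and 1.46 with salt and infusion, against 3.08, 2.76 and 2.33 with salt. They read 0.720, 1.60 and 2.26 with infusion on plain water, against 2.90, 2.93 and 3.60 in KO controls. Within the infused plain-water KO group the values ran over a wide range, and all of them were still below every KO control.
WT aortas read 0.932, 1.11 and 0.614 with salt and infusion, against 2.22, 1.48 and 1.83 with salt. They read 0.596, 0.521 and 0.739 with infusion on plain water, against 1.699, 2.95 and 1.29 in WT controls. The WT groups did not overlap under salt or under plain water.
Adm fell by 1.18 log2 units in KO under plain water (2.27-fold, SE 0.35, limma adjusted p = 0.0154), and by 1.08 under salt (2.11-fold, limma adjusted p = 0.0241) and 1.61 under plain water (3.05-fold, limma adjusted p = 0.00314) in WT. In KO under salt the log2 difference was -0.81 and missed the threshold (limma adjusted p = 0.0965). Without the first infused array the KO plain-water value was -0.72 (limma adjusted p = 0.125), and without the third control it also missed (limma adjusted p = 0.0557). With only the compared groups fitted the KO plain-water call was lost too (limma adjusted p = 0.114). Under salt in WT the call was lost without the third infused array (limma adjusted p = 0.126) and without the first or the third salt array (limma adjusted p = 0.0892 and 0.0617).

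Hif1a encodes the oxygen-regulated alpha subunit of the factor itself. Its relative signal in KO aortas was 8.40, 7.35 and 5.36 with infusion on plain water, against 3.68, 4.15 and 3.86 in KO controls. The groups were separate, and the third infused array was again the lowest of its group.
Hif1a rose 1.78-fold there (log2 0.83 ± 0.26 SE, limma adjusted p = 0.0208), and that call was lost without the first or the second infused array (limma adjusted p = 0.108 and 0.0595) and without the first or the third control (limma adjusted p = 0.0624 and 0.0525). The call was also lost with only the compared groups fitted (limma adjusted p = 0.0513).
With salt and infusion the KO aortas read 7.23, 5.69 and 6.40, against 4.08, 4.02 and 4.72 with salt. That is a log2 difference of 0.59, which did not pass (limma adjusted p = 0.102). In WT the readings with salt and infusion were 4.06, 3.56 and 6.77, against 3.19, 3.22 and 2.73 with salt (log2 0.60, limma adjusted p = 0.0797). On plain water the WT readings were 6.29, 5.12 and 2.73 with infusion, against 3.11, 3.70 and 2.78 in controls. In that last pair the third infused array lay below all controls, so the groups overlapped, and the log2 difference of 0.49 was not called (limma adjusted p = 0.177). Without that array it was 0.84 (limma adjusted p = 0.0087), and without the second infused array the WT difference under salt was 0.79 (limma adjusted p = 0.0368).

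Egln3 encodes a prolyl hydroxylase that marks the factor for destruction and is itself a target of it. In WT aortas with salt and infusion it read 0.168, 0.213 and 0.217, against 0.304, 0.311 and 0.341 with salt. The groups did not overlap, and Egln3 fell by 0.69 log2 units (1.61-fold, SE 0.18, limma adjusted p = 0.00752). On plain water the WT aortas read 0.233, 0.205 and 0.272 with infusion, against 0.323, 0.356 and 0.292 in controls, a log2 difference of -0.46 that missed the threshold (limma adjusted p = 0.0662) and passed without the third infused array (-0.56, limma adjusted p = 0.0328).
In KO aortas the readings with salt and infusion were 0.389, 0.284 and 0.279, against 0.339, 0.214 and 0.316 with salt, and those groups overlapped (log2 0.14, limma adjusted p = 0.589). On plain water they were 0.203, 0.238 and 0.254 with infusion, against 0.237, 0.307 and 0.280 in controls, again with overlap (log2 -0.24, limma adjusted p = 0.33). The second Egln3 probe also fell in WT under salt, by 0.65 log2 units (limma adjusted p = 0.029).

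**Figure D2:**
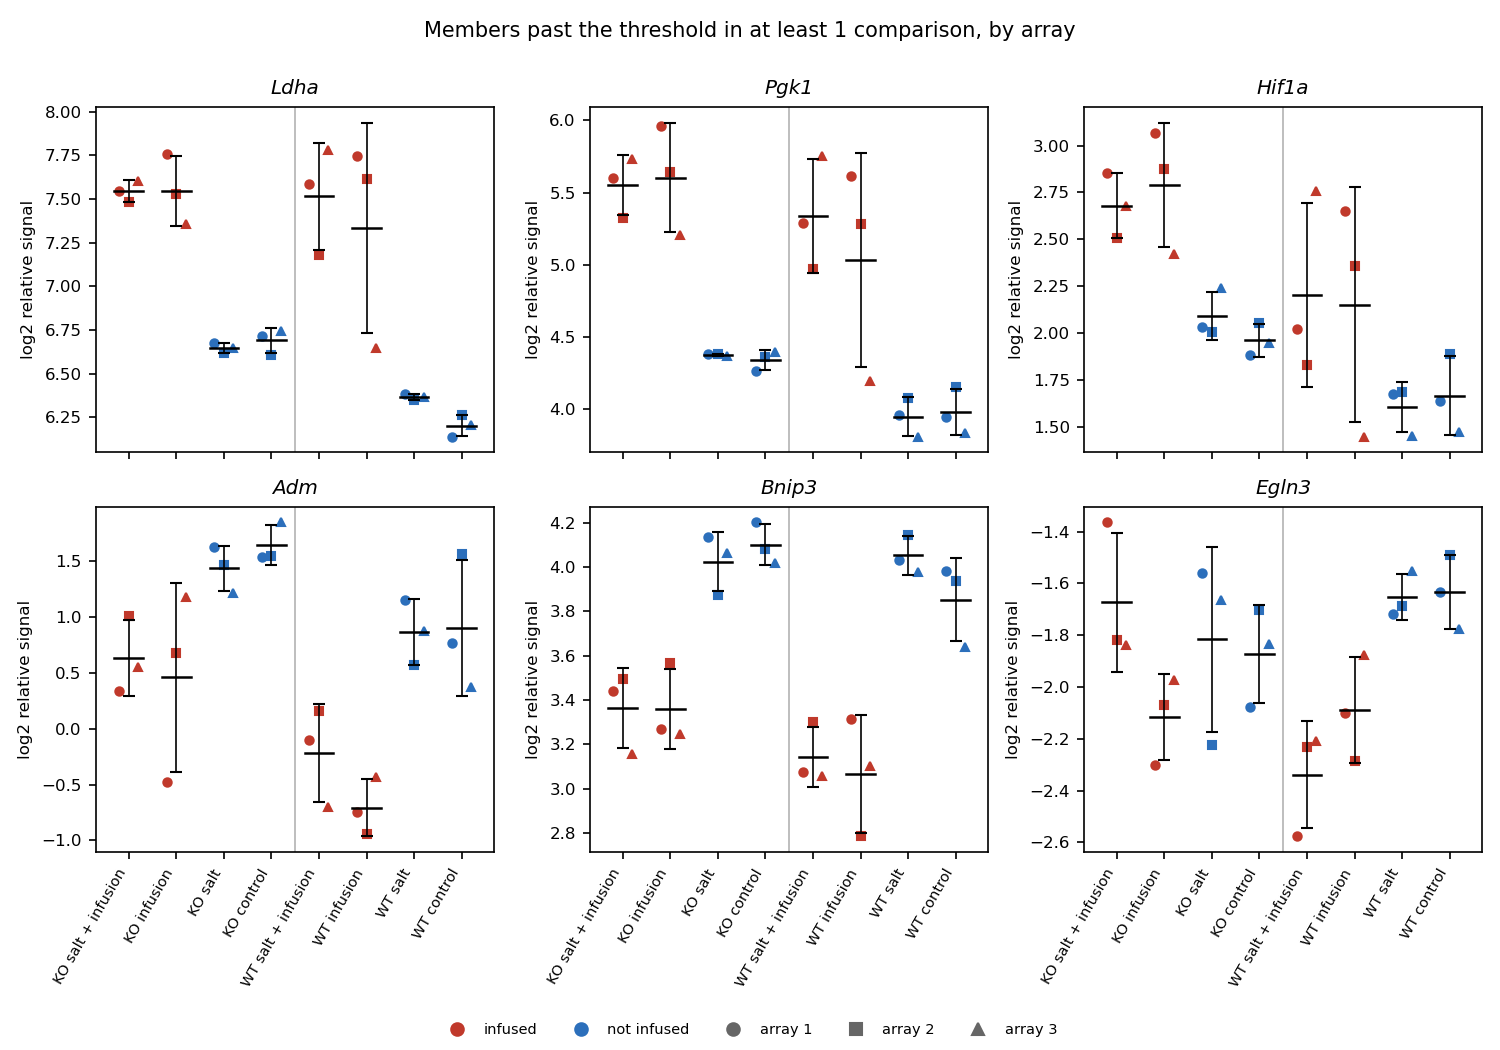
Log2 relative signal of Ldha, Pgk1, Hif1a, Adm, Bnip3 and Egln3 on the vertical axes, with the 8 groups on the horizontal axes, KO left of WT and infused groups left of the groups without infusion within each genotype. Points are arrays (red infused, blue not infused) and bars give the mean ± SD (n = 3). The red points of Ldha and Pgk1 stand above the blue points of the same genotype, those of Bnip3 and Adm below, and the third infused plain-water WT array is the lowest red point for Ldha, Pgk1 and Hif1a.

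The remaining 4 members are the glucose transporter gene Slc2a1, the hexokinase gene Hk2, Pfkfb3, whose enzyme makes the activator of phosphofructokinase, and the vascular growth factor gene Vegfa. Slc2a1 read 8.51, 5.92 and 11.1 in KO aortas with infusion on plain water, against 6.84, 7.67 and 6.71 in KO controls, so the infused arrays lay on both sides of the controls. Under salt the infused arrays lay wholly higher, at 8.30, 8.67 and 9.02 in KO, against 7.83, 7.55 and 7.08 with salt, and at 5.61, 7.38 and 7.91 in WT, against 5.497, 5.18 and 5.43 with salt. Over the 4 infusion comparisons its log2 difference ran between 0.09 and 0.36, with 95% intervals that reached from -0.30 to 0.75 and limma adjusted p of 0.139 or more.
Hk2 read 1.91, 0.924 and 3.39 in KO aortas with infusion on plain water, against 1.35, 1.58 and 1.43 in KO controls. That infused group held both the lowest and the highest of the 6 values, and the widest range of Hk2 in any group. Its 4 log2 differences ran from -0.07 to 0.32, with intervals between -0.80 and 1.06.
Vegfa read 2.05, 2.17 and 1.93 in WT aortas with infusion on plain water, against 1.83, 1.83 and 1.47 in WT controls, and those arrays did not overlap. The log2 difference of 0.27 did not pass (limma adjusted p = 0.301). In KO on plain water the Vegfa arrays also did not overlap, though only just, at 1.96, 2.20 and 1.77 with infusion, against 1.64, 1.76 and 1.53 in controls. The 4 differences of Vegfa ran from 0.03 to 0.27 and their intervals from -0.36 to 0.65.
Pfkfb3 read 4.50, 6.82 and 3.52 in WT aortas with salt and infusion, against 6.13, 6.23 and 7.58 with salt. The infused arrays thus overlapped the others through 1 array. This comparison gave the furthest of the 4 Pfkfb3 differences, at -0.47 (limma adjusted p = 0.0716). Without that 1 array, the second, it was -0.73 (limma adjusted p = 0.00563). The remaining differences lay between -0.18 and -0.03. Among them, Pfkfb3 in WT on plain water lay wholly lower with infusion, at 4.27, 4.32 and 4.34, against 5.49, 4.85 and 4.40 in controls. The intervals of Slc2a1, Hk2 and Pfkfb3 include changes of a size that was called in other members. Those of Vegfa reach 0.65, just under the smallest called change, the 0.66 of Bnip3 in KO under salt. The intervals therefore do not show that the infusion left these 4 genes as they were.

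**Figure D3:**
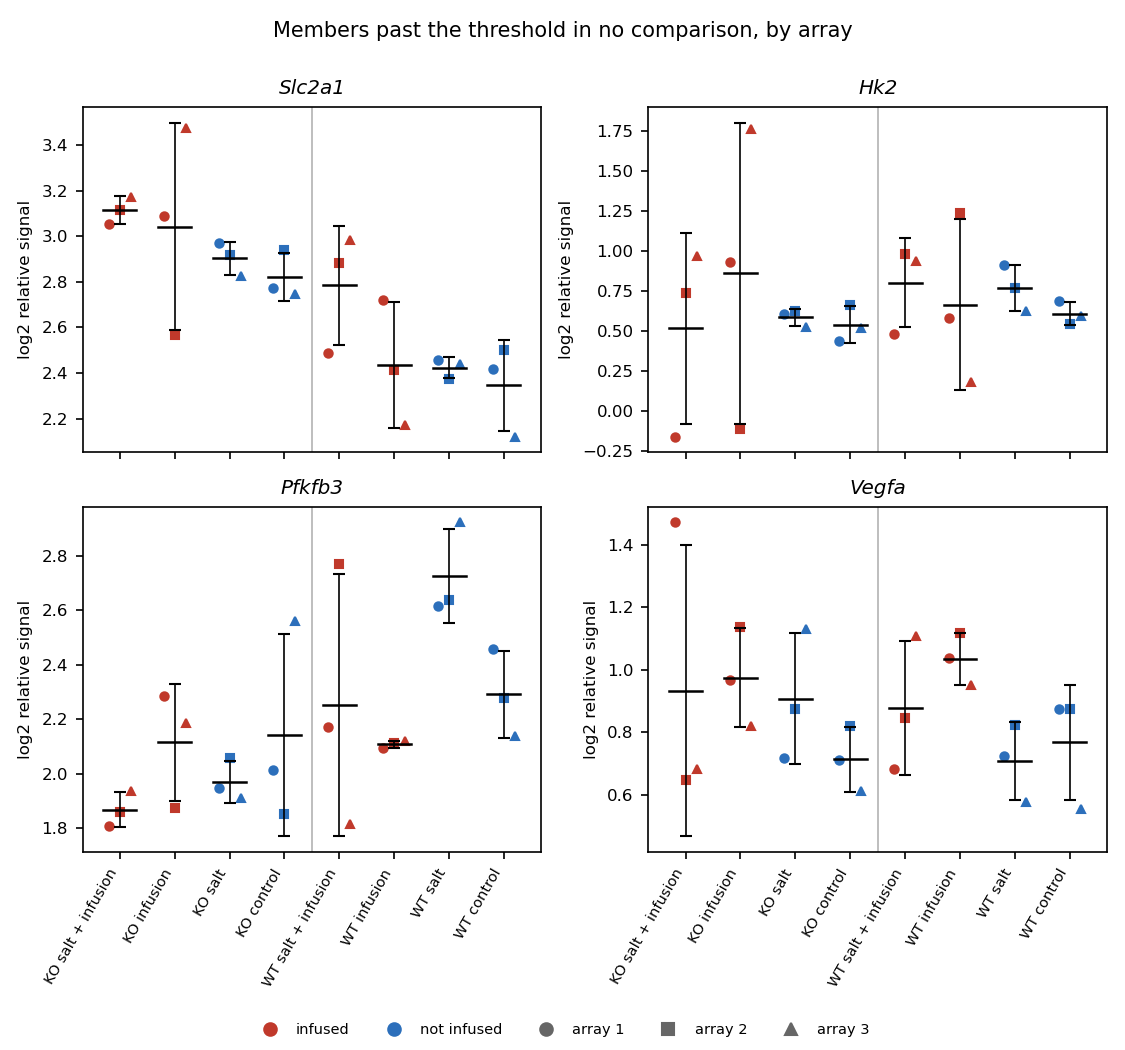
Log2 relative signal of Slc2a1, Hk2, Pfkfb3 and Vegfa on the vertical axes for the 8 groups on the horizontal axes, KO left of WT and infused groups left of the groups without infusion. Points are arrays (red infused, blue not infused) and bars give the mean ± SD (n = 3), and the red and blue points of a genotype overlap in most pairs.

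Counted together, 3 of the 10 members passed under infusion in KO under salt, where 25.3% of all genes were called. Of these members 2 were higher and 1 lower, against 13.3% and 12% of all genes. In KO under plain water 5 passed, against 30.6% of all genes, with 3 higher and 2 lower, against 14.3% and 16.4%. In WT under salt 5 passed, against 32.9%, with 2 higher and 3 lower, against 16.3% and 16.6%. In WT under plain water 4 passed, against 25.9%, with 2 higher and 2 lower, against 12.2% and 13.7%. A share of 3 to 5 in 10 is near these backgrounds or somewhat above them and is read as no result about the members. The median log2 difference of the 10 was 0.08, 0.24, 0.10 and 0.07 in KO under salt, KO under plain water, WT under salt and WT under plain water, and the median over all genes was -0.02, -0.05, -0.05 and -0.02. The 4 infusion comparisons share no arrays with each other, but all comparisons share 1 estimate of the spread.
Groups whose arrays did not overlap can be counted in the same way. In KO under salt 4 members lay wholly higher and 2 wholly lower with infusion, against 25.4% and 25.5% of all genes, and in KO under plain water 4 and 2, against 17.7% and 20% of all genes. In WT under salt 4 lay higher and 3 lower, against 25.5% and 29.2%, and in WT under plain water 3 and 4, against 16.1% and 18.9%.

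Part of each infusion comparison ran across slides, and the slide was tested as a block. In KO on plain water, 2 infused aortas shared a slide with the 3 controls, and within it Ldha differed by 0.95 (limma adjusted p = 0.00062), Pgk1 by 1.46 (limma adjusted p = 0.000205), Hif1a by 1.01 (limma adjusted p = 0.000816), Adm by -1.54 (limma adjusted p = 0.00791) and Bnip3 by -0.68 (limma adjusted p = 0.00643). In WT under salt, 2 infused aortas shared a slide with the 3 salt aortas, and within it Ldha differed by 1.01 (limma adjusted p = 0.00253), Pgk1 by 1.18 (limma adjusted p = 0.00239), Bnip3 by -0.86 (limma adjusted p = 0.00535) and Egln3 by -0.75 (limma adjusted p = 0.0096). Adm was not called within that slide, at -0.84 (limma adjusted p = 0.104). Of the 23503 genes, 10178 were called within the KO slide and 6778 within the WT slide, so many genes passed besides the members. The KO fit left out infused array 3, the lowest of its group for Ldha, Pgk1 and Hif1a. The WT fit left out infused array 3, the highest of its group for Ldha and Pgk1.
In WT on plain water the infused and the control aortas lay on different slides. The fixed slide term came there from 1 array, array 3 of WT with salt and infusion, against arrays 1 and 2 of that group. The fixed-block values in WT on plain water depend on that array. With slide as a fixed block Ldha was at 0.74 (limma adjusted p = 0.306), Pgk1 at 0.43 (limma adjusted p = 0.658), Adm at -0.88 (limma adjusted p = 0.423) and Bnip3 at -0.66 (limma adjusted p = 0.22), with no member called. With slide as a random block no member was called either. Of all genes the fixed block called 261 there and the random block 769.
In KO under salt the groups also lay on different slides. The fixed slide term came from array 3 of KO with infusion on plain water, against arrays 1 and 2 of that group. Array 3 was the one that correlated least with its own group, and the fixed-block values in KO under salt depend on it. That fit called 8611 of the 23503 genes in KO under salt. There the fixed block gave Ldha 1.19 (limma adjusted p = 0.0165), Pgk1 1.78 (limma adjusted p = 0.00593), Hif1a 1.14 (limma adjusted p = 0.0315), Adm -1.88 (limma adjusted p = 0.0135) and Hk2 -1.42 (limma adjusted p = 0.0451), and Bnip3 was no longer called at -0.49 (limma adjusted p = 0.147).

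Markers of other cells moved with the infusion. Of 10 macrophage markers, 6 rose in KO under salt, 7 in KO under plain water, 7 in WT under salt and 9 in WT under plain water, and none fell. All 7 measured proliferation markers rose in each of the 4 comparisons. Of all genes, 13.3%, 14.3%, 16.3% and 12.2% rose in the order given for the macrophage markers, and 12%, 16.4%, 16.6% and 13.7% fell. Of 8 smooth muscle markers, 2, 4, 1 and 3 fell in the same order and none rose. Of the 6 measured neutrophil markers 2 rose in each comparison, and of 8 endothelial markers 0, 1, 2 and 1 rose. The measured neutrophil markers S100a8, S100a9, Ly6g and Csf3r were well above background on 20, 21, 24 and 24 arrays. The measured markers Cxcr2 and Mpo were so on only 5 and 10. Retnlg and Ngp, on 7 and 0 arrays, were not among those measured. Of 8 fibroblast markers, 5 fell in KO under salt, 3 in KO under plain water, 4 in WT under salt and 3 in WT under plain water, and 2 rose in each WT comparison. Of the 7 measured fat cell markers, 1 rose in each comparison and 2 fell in KO under plain water, where their median log2 difference was -1.41. Their summed relative signal went the other way there, at 32.5 to 43.1 with infusion against 24.4 to 27.8 in KO controls. The fat cell markers thus gave no single direction.
The summed relative signal of the proliferation markers was 58.1 to 96.6 in KO aortas with salt and infusion and 18.6 to 114 with infusion on plain water, against 2.43 to 2.73 with salt and 2.46 to 4.07 in KO controls. In WT it was 35.4 to 85.5 with salt and infusion and 31.7 to 85.7 with infusion on plain water, against 2.75 to 4.03 with salt and 2.57 to 4.66 in WT controls. The lowest sum of each infused plain-water group was that of its array 3, which also gave the lowest Ldha, Pgk1 and Hif1a of that group in both genotypes. In KO this array was the only one of its group on its slide, so slide cannot be told apart from these lows. It gave the highest Slc2a1, Hk2 and Adm of the KO group, whereas in WT array 3 gave the lowest Slc2a1 and Hk2 and the highest Adm.
The macrophage sum was 202 to 228 in KO aortas with salt and infusion and 177 to 274 with infusion on plain water, against 128 to 145 with salt and 129 to 143 in KO controls. In WT it was 235 to 255 with salt and infusion and 239.7 to 288 with infusion on plain water, against 185 to 188 with salt and 168 to 217 in WT controls. The smooth muscle sum was 1199 to 1551 and 1304 to 1936 in the infused KO groups, salt group first, against 1789 to 1895 with salt and 1714 to 2034 in KO controls. In WT it was 2150.4 to 2517 with salt and infusion and 2002 to 2338 with infusion on plain water, against 2407 to 2522 with salt and 2255 to 2909 in controls. What part the cell makeup had in the members' changes was not tested.

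The members with opposite changes can be set against other genes of the pathway, taken from lists chosen with earlier results of these data known. Of 24 measured genes of glycolysis and of glucose and lactate transport, 9 rose and 1 fell in KO under salt, 8 rose and 5 fell in KO under plain water, 9 rose and 5 fell in WT under salt, and 6 rose and 4 fell in WT under plain water. Their median log2 differences were 0.34, 0.05, 0.24 and 0.22 in that order. Of all genes, 13.3%, 14.3%, 16.3% and 12.2% rose in that order, and 12%, 16.4%, 16.6% and 13.7% fell. The median over all genes was -0.02, -0.05, -0.05 and -0.02. Slc16a3, the lactate exporter, rose by 1.73, 1.45, 1.38 and 1.41 log2 units in KO under salt, KO under plain water, WT under salt and WT under plain water (limma adjusted p = 8.21e-06, 4.98e-05, 6.01e-05 and 8.81e-05). Eno1, the glycolytic enolase, rose by 1.09, 0.87, 1.09 and 1.04 in the same comparisons.
Ldhb encodes the lactate dehydrogenase subunit that favours the use of lactate, and it fell in the 4 comparisons by 1.01, 1.40, 1.16 and 1.07 log2 units, the opposite of Ldha. Aldoc, an aldolase, rose by 1.18 in KO under salt and by 1.01 in WT under plain water. Gapdh rose in WT, by 0.79 under salt and 0.69 under plain water.

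Of the 8 subunits and regulators of the factor outside the members, none rose in any infusion comparison. In the order KO under salt, KO under plain water, WT under salt and WT under plain water, 2, 2, 2 and 1 fell. The medians were -0.22, -0.41, -0.19 and -0.21. Of all genes 12%, 16.4%, 16.6% and 13.7% fell in the same order. A count of 1 or 2 in 8 is near these shares or somewhat above them and is read as no result about the list. Epas1, the second oxygen-regulated alpha subunit, fell by 0.67, 0.77, 0.72 and 0.68 log2 units (limma adjusted p = 0.0293, 0.0121, 0.0166 and 0.0279). Egln1, the main oxygen-sensing hydroxylase, fell in KO by 0.59 under salt and 0.64 under plain water, and its values in WT, -0.27 and -0.42, did not pass. Hif3a, a further alpha subunit, fell by 1.28 in WT under salt (limma adjusted p = 0.0282), with -0.60, -0.62 and -0.53 in KO under salt, KO under plain water and WT under plain water that did not pass. Arnt, Vhl, Egln2, Hif1an and Cited2 passed in none of the 4.

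Of 20 measured further targets of the factor, 8 rose and 2 fell in KO under salt, 10 and 3 in KO under plain water, 9 and 3 in WT under salt, and 7 and 2 in WT under plain water, with medians of 0.47, 0.45, 0.50 and 0.43. In that order 13.3%, 14.3%, 16.3% and 12.2% of all genes rose, and 12%, 16.4%, 16.6% and 13.7% fell. Loxl2, a lysyl oxidase family member, rose by 1.35, 1.25, 1.73 and 1.45 log2 units. Plod2, which hydroxylates collagen lysines, rose by 1.05, 1.14, 1.14 and 1.28. Tfrc, the transferrin receptor, rose by 1.72 and 1.61 in KO and by 1.96 in WT under salt. Ndrg1 fell by 0.92 in KO under salt and 0.91 in WT under plain water.
The receptors of the 2 secreted members were read as well. Ramp1, which pairs with the calcitonin receptor-like receptor, fell by 0.62, 0.86, 0.52 and 0.95 log2 units in KO under salt, KO under plain water, WT under salt and WT under plain water. Ramp2 and Ramp3, the partners that make that protein a receptor for adrenomedullin, passed in none of the 4. In the same order Ramp2 differed by -0.36, -0.30, -0.36 and -0.23, and Ramp3 by 1.07, 1.25, -0.01 and 0.21. Calcrl, the receptor itself, fell by 0.96 under salt and 1.26 under plain water in KO, with -0.63 and -0.75 in WT that did not pass. Of the receptors for Vegfa, Flt1 rose in KO by 0.56 under salt and 0.46 under plain water, with 0.19 and 0.19 in WT that did not pass. Kdr rose in WT by 0.53 under salt and 0.56 under plain water, with 0.38 and -0.02 in KO that did not pass. The difference of these effects between genotypes passed for neither gene (limma adjusted p of 0.542 or more). Nrp2, a co-receptor, rose in 3 of the 4 comparisons, by 0.99, 1.17 and 1.11, with 0.64 in WT under salt that did not pass.

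**Figure D4:**
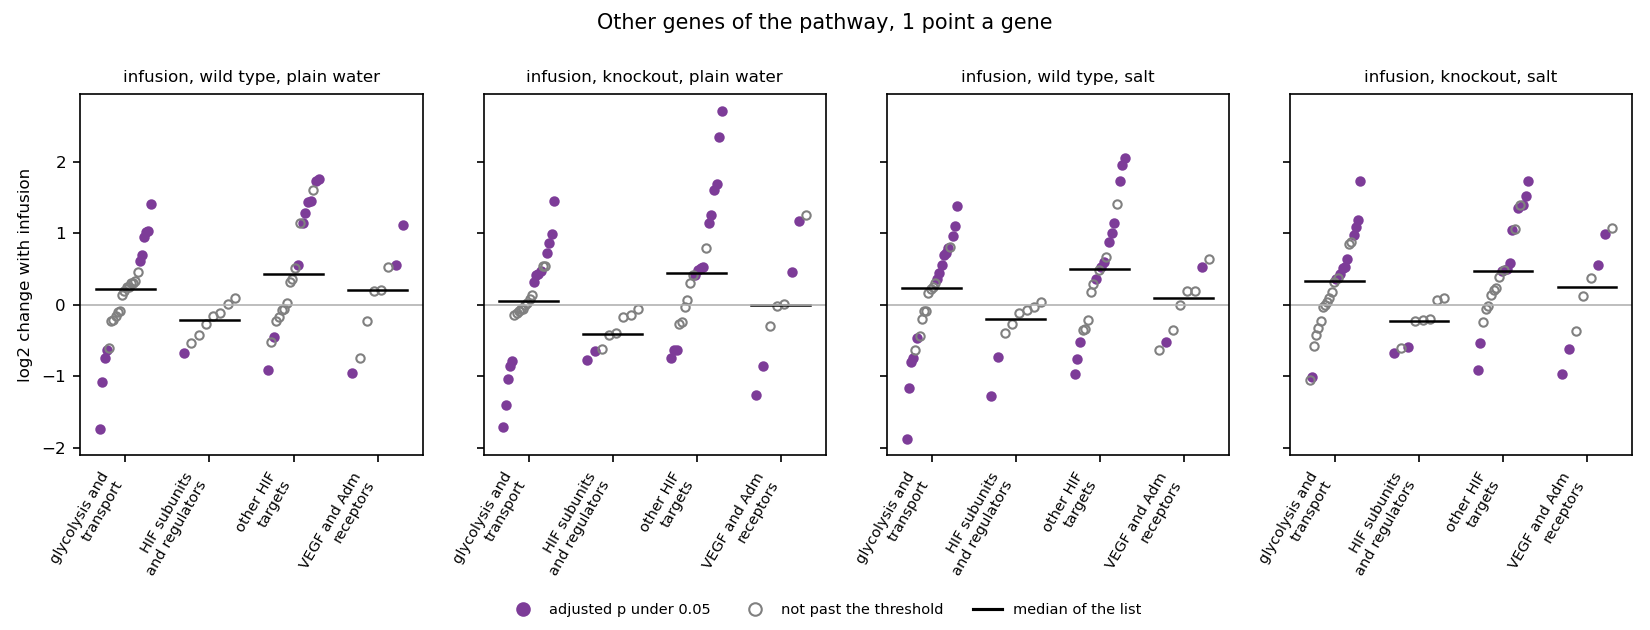
Log2 difference of infused against non-infused aortas for each gene of 4 lists (glycolysis and transport, subunits and regulators of the factor, other targets, receptors), 1 panel per infusion comparison. Each point is 1 gene, filled where the adjusted p was under 0.05, and the bar is the list's median. The list of subunits and regulators has its median below 0 in every panel, and the list of other targets has it above 0.

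The second question was the effect of salt water, alone and during the infusion. No member was called in any of the 4 salt comparisons, and neither was nearly any gene, with 0% of all genes called in 3 of them and 0.00425% during infusion in KO. At an unadjusted p under 0.05, limma counted 499 genes for salt alone in WT, 714 for salt alone in KO, 1354 for salt during infusion in WT and 1067 for salt during infusion in KO. Members among them were Pfkfb3 for salt alone in WT and Egln3 for salt during infusion in KO. Pfkfb3 read 6.13, 6.23 and 7.58 with salt, against 5.49, 4.85 and 4.40 in WT controls. These groups did not overlap, and the log2 difference was 0.43 (limma, unadjusted p = 0.0409). Egln3 read 0.389, 0.284 and 0.279 with salt and infusion, against 0.203, 0.238 and 0.254 with infusion on plain water in KO. These groups did not overlap either (log2 0.44, limma, unadjusted p = 0.0226). However, the 3 KO arrays with salt and infusion shared a slide with only 1 plain-water infused array, the third, at 0.254. In WT only 1 array with salt and infusion shared a slide with the 3 plain-water infused arrays. Salt during infusion thus ran across slides in both genotypes, and salt and slide cannot be fully told apart there. Salt alone was compared within 1 slide in each genotype. Over all 10 members the log2 difference ran from -0.06 to 0.43 for salt alone in WT, -0.21 to 0.19 for salt alone in KO, -0.25 to 0.49 during infusion in WT and -0.35 to 0.44 during infusion in KO. Arrays that did not overlap were found for 2 members, both higher with salt, for salt alone in WT, where 4.1% of all genes lay wholly higher and 7.69% wholly lower. They were found for 1 member, higher, during infusion in KO (3.79% of all genes higher, 3.18% lower). There were none for salt alone in KO (5.75% and 7.61%) or during infusion in WT (2.69% and 5.44%).
Besides Pfkfb3, the member without overlap for salt alone in WT was Ldha, which read 83.4, 81.7 and 82.6 with salt, against 70.5, 76.7 and 73.9 in WT controls (log2 0.17, limma, unadjusted p = 0.426). In KO it read 102, 98.2 and 100.1 with salt, against 105, 97.6 and 107.3 in controls, and those arrays interleaved.

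The third question was whether the genotypes differed, at baseline, under salt with infusion and in the size of the infusion's effect. Between KO and WT controls no member was called, although 37.2% of all genes were, 14.4% higher and 22.7% lower in KO. Arrays of 4 members lay wholly higher in KO and none wholly lower, where 27.9% and 31.3% of all genes did. Adm read 2.90, 2.93 and 3.60 in KO controls, against 1.699, 2.95 and 1.29 in WT controls, with 1 WT array inside the KO range (log2 0.74, limma adjusted p = 0.101). Slc2a1 read 6.84, 7.67 and 6.71 in KO controls, against 5.34, 5.66 and 4.35 in WT controls. These did not overlap, and the log2 difference of 0.47 just missed the threshold (limma adjusted p = 0.0519). Ldha did not overlap either, at 105, 97.6 and 107.3 in KO controls, against 70.5, 76.7 and 73.9 in WT controls (log2 0.49, limma adjusted p = 0.0665).
Between KO and WT with salt and infusion, 1 member was called, higher in KO, against 28.6% of all genes (10.5% higher, 18.1% lower). Arrays of 3 members lay wholly higher and none wholly lower, against 19.7% and 25.6% of all genes. Egln3 was higher in KO, at 0.389, 0.284 and 0.279, against 0.168, 0.213 and 0.217 in WT. These groups did not overlap and the difference was 0.67 log2 units (1.59-fold, limma adjusted p = 0.00957). Without the first KO array it was not called (limma adjusted p = 0.0681), nor without the first WT array (limma adjusted p = 0.054). Without the third WT array, Hif1a at 0.75 and Pfkfb3 at -0.60 passed as well (limma adjusted p = 0.0355 and 0.0283).
The choice of probe changed the direction between genotypes for Hif1a between the controls and for Vegfa under salt with infusion. The second Hif1a probe, well above background on 15 of the 24 arrays, gave -1.72 between the controls where the brightest gave 0.30. The second Vegfa probe gave -0.95 between the controls and -0.87 under salt with infusion, where the brightest gave -0.05 and 0.06. Neither value of the brightest Vegfa probe was called (limma adjusted p = 0.838 and 0.846), and between the controls both probes were negative.

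The effect of the infusion was tested for a difference between KO and WT directly. On plain water 0% of all genes were called and no member was, with limma adjusted p of 0.905 to 0.998 for the members and 1532 genes at an unadjusted p under 0.05. Under salt 0.0596% of all genes were called (0.0511% with the larger value in KO and 0.00851% with the smaller) and no member. Egln3 had the furthest difference there, 0.83 log2 units with a 95% interval from 0.30 to 1.35 (limma adjusted p = 0.322). For Ldha the intervals of the difference between genotypes ran from -0.88 to 0.36 over both tests, and for Bnip3 from -0.38 to 0.67. In size, each reaches just past the smallest infusion effect of its gene, 0.86 for Ldha and 0.66 for Bnip3. Neither reaches the largest, 1.15 and 0.91.

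**Figure D5:**
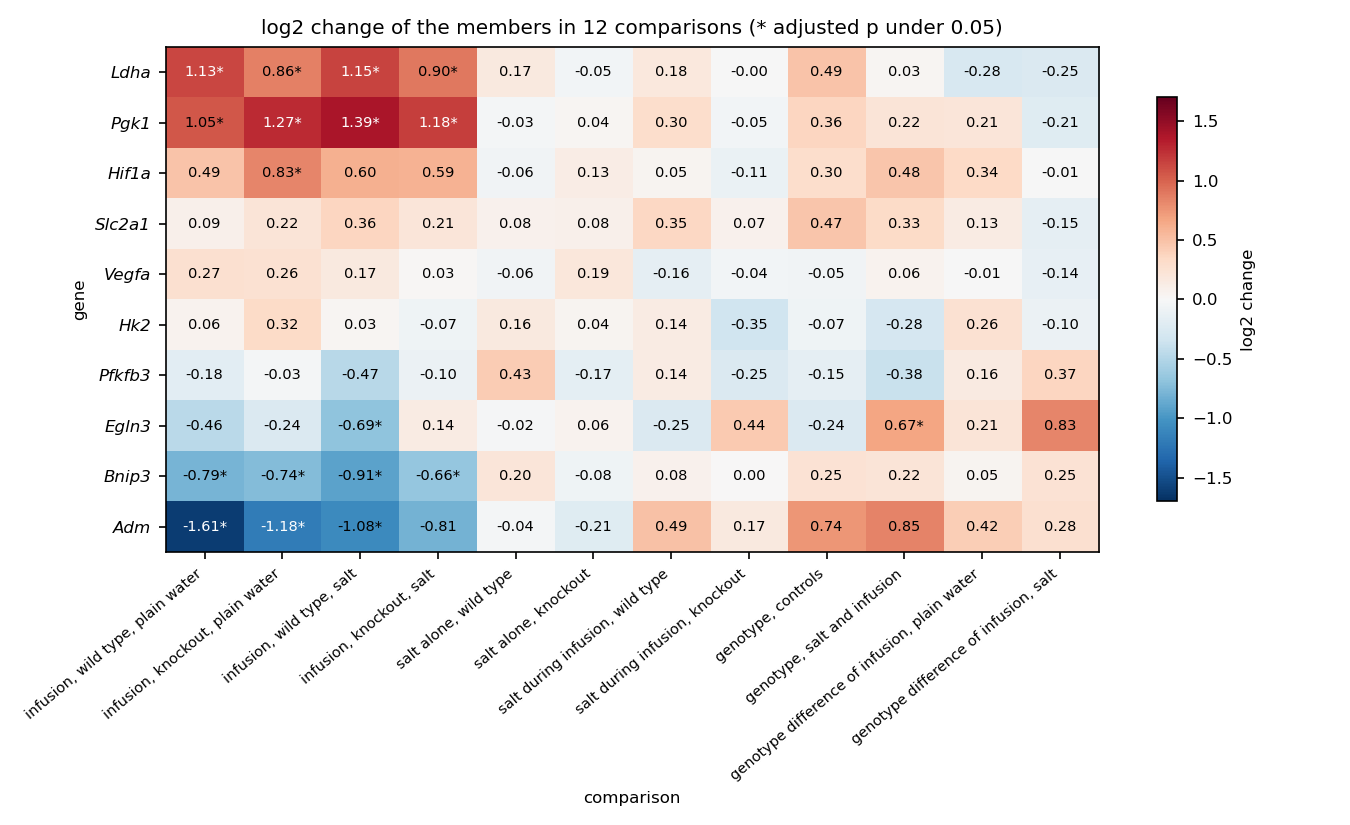
Log2 differences of the 10 members (rows) in the 12 comparisons (columns), coloured by size and direction with the value in each cell, and a star where the adjusted p was under 0.05. Stars lie in the 4 infusion columns for Ldha, Pgk1 and Bnip3, in 3 for Adm and in 1 for Hif1a and Egln3, with 1 more for Egln3 between genotypes under salt with infusion.

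Across the 8 group means the members fell into sets that moved together. These correlations are descriptions over 8 points that share arrays, scaling and treatment, and carry no test. Ldha and Pgk1 had a Pearson r of 0.985, Hif1a and Pgk1 of 0.932, and Adm and Bnip3 of 0.911, while Ldha and Bnip3 had -0.859. Among 13229 candidate genes, the patterns most like Ldha were those of Lmnb1 (r = 0.996) and Sh3glb1 (r = 0.996). The one nearest to Bnip3 was Zfp365 (r = 0.996), and the one nearest to Adm was Sf3b2 (r = 0.999). Hk2 had the least close neighbour, Tnnt3 (r = 0.838), and no neighbouring groups in its order of levels, nor in that of Vegfa, differed beyond their spread.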

How the data were processed

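Cy3-labelled total RNA was put on Agilent arrays in a single colour, and the protocols in the labels speak of cells where the other labels say aorta. The scanner files hold linear intensity that Feature Extraction had already background-corrected, per the file headers (version 10.7.1.1, whereas the submitters' processing notes name 9.5.1.1). The deposited value table also holds intensity, with a median of 30.98 in each column, and ranked as the scanner values did (lowest Spearman rho 0.99997 per array), so its direction is known while its offset is unstated. Replicate numbers of WT salt aortas come from the source names, since their titles count from 2.

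From the scanner intensity, log2 values minus the 75th percentile of each array were computed, after 2910 outlier spots were left out; no spot was saturated. Spots of a probe were averaged, and 33374 of 55681 probes were kept (those with every array of 1 or more groups clear of background and a value on at least 2 arrays of each group). Each gene took its brightest probe. Probe accessions gave RefSeq symbols for 27235 probes, and 3581 matched by the name in the file. limma 3.58.1 (lmFit, eBayes) fitted 8 group means over all 24 arrays, with Benjamini-Hochberg adjustment over 23503 genes and a threshold of 0.05. The procedure was tested on simulated data over the infusion and salt comparisons. It recovered 12% to 24% of changes of 0.5 log2 units and 46% to 68% of changes of 1 log2 unit. Replicates are labelled biological. No 2 arrays were identical, and r between arrays was 0.911 to 0.995.

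The members and gene lists were chosen with earlier results of these data known. Beyond the members, up to 5 genes with the smallest p per list and comparison were named, plus receptors and regulators of members. mm9 exon annotation was not used here. The number of arrays limits the precision. Alternatives were quantile scaling, normexp, the deposited values, filters, the mean of probes, slide and replicate blocks, fits on the compared groups, and leaving out each array.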

Additional observations from a re-analysis of the deposited data

How the results depend on the processing

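Of the 18 member values called, 9 kept direction and call in every setting run (Ldha and Pgk1 in KO under both waters and in WT under salt, Bnip3 in KO under plain water and WT under salt, and Egln3 under infusion in WT under salt). The number of members called by infusion in KO under plain water was 5 and became 3 with a fit on the compared groups alone, and 3 to 5 when single arrays were left out, 3 without the third control or the first infused array. In KO under salt it was 3 and became 5 both with only the compared groups and with slide as a fixed block. In WT under plain water it was 4 and became 1 with only the compared groups and 0 with slide as a fixed or a random block, and 3 to 6 when arrays were left out, 6 without the third infused array. There the fit on the compared groups alone gave limma adjusted p of 0.0694 for Ldha, 0.0619 for Bnip3 and 0.115 for Pgk1. In WT under salt it was 5, and 4 to 7 when arrays were left out, 7 without the second infused array. Between the controls of the genotypes it was 0 and became 1 with quantile scaling, the deposited values or only probes above background on all arrays, 2 with normexp or the mean of probes, 3 with only the compared groups, and 0 to 2 when arrays were left out, 2 without the second WT control. Under salt with infusion the genotype count was 1 and became 3 with the mean of probes and 0 with slide as a random block, and 0 to 3 when arrays were left out, 3 without the third WT array and 0 without the first array of either genotype. The mean of probes reversed Hif1a between controls (-0.71, limma adjusted p = 0.00916) and Vegfa under salt with infusion (-0.41, limma adjusted p = 0.037). The Egln3 genotype call was lost with normexp (0.23, limma adjusted p = 0.116). The causes were not tested. Normexp moved the median of all genes by at most 0.117 and quantile scaling by 0.0900. Over all genes, infusion in WT under plain water called 6086, against 261 with slide fixed, 769 with slide random and 1237 with only the compared groups, and in KO under plain water 7202, against 2390 with only the compared groups. The genotype difference of infusion under salt called 14, against 1968 with slide fixed and 80 with only the compared groups, and salt during infusion in KO called 1, against 270 with slide fixed. The genotype counts were 8737 between controls and 6711 under salt with infusion, against 1986 and 2362 with slide random. Deviations from the group means correlated at -0.449 to 0.453 between same-numbered arrays of different groups (median -0.023). Between differently numbered arrays they correlated at -0.512 to 0.524 (median 0.007), so the numbers showed no sign of pairing. The replicate block changed no count of members, with 5 still called in KO under plain water.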

Other observations

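Angptl4, a secreted inhibitor of lipoprotein lipase and a target of hypoxia-inducible factor, differed between genotypes in opposite directions in 2 settings. It was 1.54 log2 units lower in KO than in WT controls (limma adjusted p = 0.0121) and 1.48 higher in KO than in WT with salt and infusion (limma adjusted p = 0.0202). The infusion raised it in KO, by 2.35 under plain water (limma adjusted p = 0.00108) and 1.40 under salt (limma adjusted p = 0.0297). The WT values of 1.14 and 0.29 did not pass, and the difference of the infusion's effect between genotypes did not pass either (1.21 and 1.11, limma adjusted p = 0.791 and 0.657). Among the regulators of the factor, Egln2 was lower in KO by 0.71 log2 units between controls and by 0.66 with salt and infusion (limma adjusted p = 0.000297 and 0.00099), and Vhl was higher in KO by 0.30 and 0.39 (limma adjusted p = 0.0213 and 0.00563). Each genotype lay on its own slides, so genotype and slide cannot be told apart for these values.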
